A study of Mus musculus with 6 samples.

Results

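The 8 genes described here handle iron or bind metals in the cell: Tfrc, Slc11a2 and Steap3 for iron uptake, Fth1 and Ftl1 for storage, Slc40a1 for export, and the metallothioneins Mt1 and Mt2. They were chosen by symbol from a table of read counts for 46095 genes, and all 8 passed the filter on low counts that left 14611 genes to test. The counts came from RNA sequencing of primary tubular epithelial cells (PTECs) freshly isolated from kidneys of 10-week-old C57 mice, with 3 libraries under each of the labels VHL-KO (numbered 1, 2 and 4) and VHL-KO;SETD2-KO (numbered 2, 3 and 4). Mice of both labels carried the Ksp promoter-driven Cre, active in tubular epithelium under the Cdh16 promoter, and floxed Vhl alleles. Those labelled VHL-KO;SETD2-KO carried floxed Setd2 alleles as well. Both labels therefore share the loss of Vhl, and no library with intact Vhl was analysed here. The comparison asks which transcripts differ when Setd2, a histone H3 lysine methyltransferase, is deleted on top of Vhl.

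Iron bound to transferrin enters a cell through the transferrin receptor, is reduced in the endosome and passes to the cytosol through a divalent metal transporter. It is then used, stored in ferritin or exported through ferroportin. When iron is scarce, iron regulatory proteins bind hairpins called iron-responsive elements: in a 5′ UTR they block translation of ferritin and ferroportin, and in the 3′ UTR of the transferrin receptor they protect the transcript. The proximal tubule reclaims filtered iron and metal-binding proteins. Metallothioneins are small cysteine-rich proteins that hold zinc and copper and are switched on through metal response elements in their promoters. Loss of VHL stabilises hypoxia-inducible factors, whose known targets include several of these genes.

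The hairpins are shown because 5 of the 8 members hold a match. The search looked for a bulged C, 5 bases, a loop of 6 bases starting CAGTG, and a second arm that pairs with the first. G-U pairs were allowed and at most 1 base of the second arm could be unpaired. It covered the protein-coding GENCODE M21 transcripts, on the transcript strand. Capitals mark the bulged C and the loop, the flanking lower stem is included, and coordinates are GRCm38.
Fth1 5′ UTR, chr19:9982733-9982759, plus strand: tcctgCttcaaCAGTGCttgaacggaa
Ftl1 5′ UTR, chr7:45459780-45459806, minus strand: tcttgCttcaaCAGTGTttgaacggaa
Slc40a1 5′ UTR, chr1:45925466-45925492, minus strand: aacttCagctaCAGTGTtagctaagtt
Slc11a2 3′ UTR, chr15:100395153-100395180, minus strand: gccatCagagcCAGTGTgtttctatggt
Tfrc 3′ UTR, chr16:32631220-32631246, plus strand: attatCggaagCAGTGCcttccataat
Tfrc 3′ UTR, chr16:32631599-32631625, plus strand: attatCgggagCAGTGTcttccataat
Tfrc 3′ UTR, chr16:32631664-32631690, plus strand: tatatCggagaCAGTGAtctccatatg
Tfrc 3′ UTR, chr16:32631711-32631737, plus strand: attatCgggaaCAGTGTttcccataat
The Slc11a2 match had 1 unpaired base in its second arm. The matches lay in 1 of 8 annotated transcripts of Slc11a2, 1 of 8 of Slc40a1, 1 of 7 of Tfrc, 1 of 6 of Ftl1 and 4 of 9 of Fth1. These totals count annotated transcripts of every type, of which only the protein-coding ones were searched. Counts summed over a gene cannot show whether forms with or without the hairpin differed. No match was found in protein-coding transcripts of Steap3, Mt1 or Mt2. Across the annotation 879 of 21877 protein-coding genes (4.02%) held a match and 435 (1.99%) held one in a UTR.

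Mt1 and Mt2 lie next to each other on chromosome 8, Mt2 at 94172664-94173568 and Mt1 at 94179082-94180327, both on the plus strand. Their promoters are shown because both genes are known to answer to metals through such sequences. The 250 bases before each RefSeq start (GRCm38.p6) are printed with matches to the core of the metal response element, TGCACNC or TGCGCNC on either strand, in capitals.
Mt1 promoter, chr8:94178839-94179088, plus strand: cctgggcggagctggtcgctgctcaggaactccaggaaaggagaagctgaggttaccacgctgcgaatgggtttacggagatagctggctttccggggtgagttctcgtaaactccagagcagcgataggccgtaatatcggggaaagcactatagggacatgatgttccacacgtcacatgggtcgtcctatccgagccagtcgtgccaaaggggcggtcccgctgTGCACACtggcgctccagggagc
Mt2 promoter, chr8:94172368-94172617, plus strand: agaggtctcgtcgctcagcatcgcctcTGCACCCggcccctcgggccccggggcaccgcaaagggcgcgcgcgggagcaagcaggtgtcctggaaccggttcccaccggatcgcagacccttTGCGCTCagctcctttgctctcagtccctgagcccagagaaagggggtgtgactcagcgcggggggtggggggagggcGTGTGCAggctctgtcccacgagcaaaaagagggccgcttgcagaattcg
The Mt1 window held 1 match and the Mt2 window 3, while 21.4% of 32851 promoter windows of this length held at least 1 and 1.26% at least 3. GENCODE places other Mt1 starts downstream of the Mt1 window, at 94179211 and 94179241. Its Mt2 starts, at 94172664 and 94172860, lie downstream of the Mt2 window. The bases between each window and these starts were not searched.

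Libraries held 11168552 to 17883466 counts, and 3 counts corresponded to 0.159 to 0.280 CPM, the standard unit of counts scaled to a common library size, here with edgeR's TMM factors. Setd2 levels did not separate the labels. The gene had 1179, 799 and 132 counts (71.5, 73.9 and 12.3 CPM) in VHL-KO-labelled replicates 1, 2 and 4. In VHL-KO;SETD2-KO-labelled replicates 2, 3 and 4 it had 1499, 1019 and 1429 counts (79.6, 57.4 and 89.6 CPM). VHL-KO replicates 1 and 2 lay within the range of the other label, and replicate 4 lay below every other library. The log2 difference over all libraries was 0.52 ± 0.64 (SE; edgeR, adjusted p = 0.787). Which exons were deleted was not used here, so counts over the whole gene check the label only in part, and directions below are between libraries as labelled. Vhl was detected under both labels, with 139 to 276 counts against 189 to 317. The library labelled VHL-KO replicate 4 stood apart: its Spearman correlation with the other libraries was 0.717 to 0.765 across genes, against 0.937 to 0.986 for the 10 other pairs, and 11.3% of its counts came from mitochondrially encoded genes, against 25.9% to 36.4% elsewhere. The members' comparisons are therefore also given without it. Of all tested genes, 0.00684% passed an adjusted p of 0.05, which is 1 gene. At an unadjusted p of 0.05 with a 1.5-fold change, the study's thresholds, 4.68% were lower and 2.65% higher under the VHL-KO;SETD2-KO label.

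Proximal tubule markers were abundant in every library, and their sum differed between the labels. The summed level of 12 such markers, among them the phosphate transporter Slc34a1 and the water channel Aqp1, was 14884, 14248 and 31933 CPM in VHL-KO-labelled replicates 1, 2 and 4. Under the VHL-KO;SETD2-KO label it was 6372, 9577 and 7776 CPM in replicates 2, 3 and 4, with no overlap. Of the 12 markers 6 passed the unadjusted thresholds as lower and 0 as higher, while Slc5a12 had a positive log2 difference, 0.50 ± 0.75 (SE). Slc34a1 was the largest part of the sum in each library, with 4979 of 14884 CPM in VHL-KO replicate 1. Podocyte markers summed to 1560 to 2421 CPM against 2172 to 5259 CPM, with 4 of 8 higher and none lower at those thresholds. Endothelial markers summed to 1266 to 1988 CPM against 1543 to 4603 CPM, with 0 called, and thick limb and distal tubule markers to 1789 to 7081 CPM against 1928 to 5053 CPM, with 2 of 8 higher. Collecting duct markers lay at 55.2 to 512 CPM against 96.3 to 303 CPM, macrophage markers at 108 to 387 CPM against 86.1 to 239 CPM, erythroid markers, mostly globins, at 543 to 1916 CPM against 563 to 610 CPM, and stromal markers at 82.1 to 540 CPM against 90.5 to 206 CPM. At the same thresholds 2 collecting duct markers were higher, 2 macrophage markers and 1 erythroid marker lower, and 0 stromal markers either. In such bulk samples fewer cells of a type and less RNA per cell cannot be told apart.

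Per kilobase of the principal transcript, the ferritin subunits were far above the other members. Over the 6 libraries Fth1 had a median level of 2395 CPM per kb and Ftl1 of 1286, followed by Mt1 with 67.8, Mt2 with 61.6, Slc11a2 with 23.6, Tfrc with 22.8, Slc40a1 with 9.76 and Steap3 with 2.83. The lowest ferritin value, 1082 CPM per kb for Ftl1, was above the highest metallothionein value, 236 CPM per kb for Mt1. Likewise the lowest Mt2 value, 34.4 CPM per kb, was above the highest Slc11a2 value, 32.5 CPM per kb. The other neighbours in this order overlapped in their ranges over the 6 libraries, although Fth1 exceeded Ftl1 and Mt1 exceeded Mt2 within each library.

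**Figure D1:**
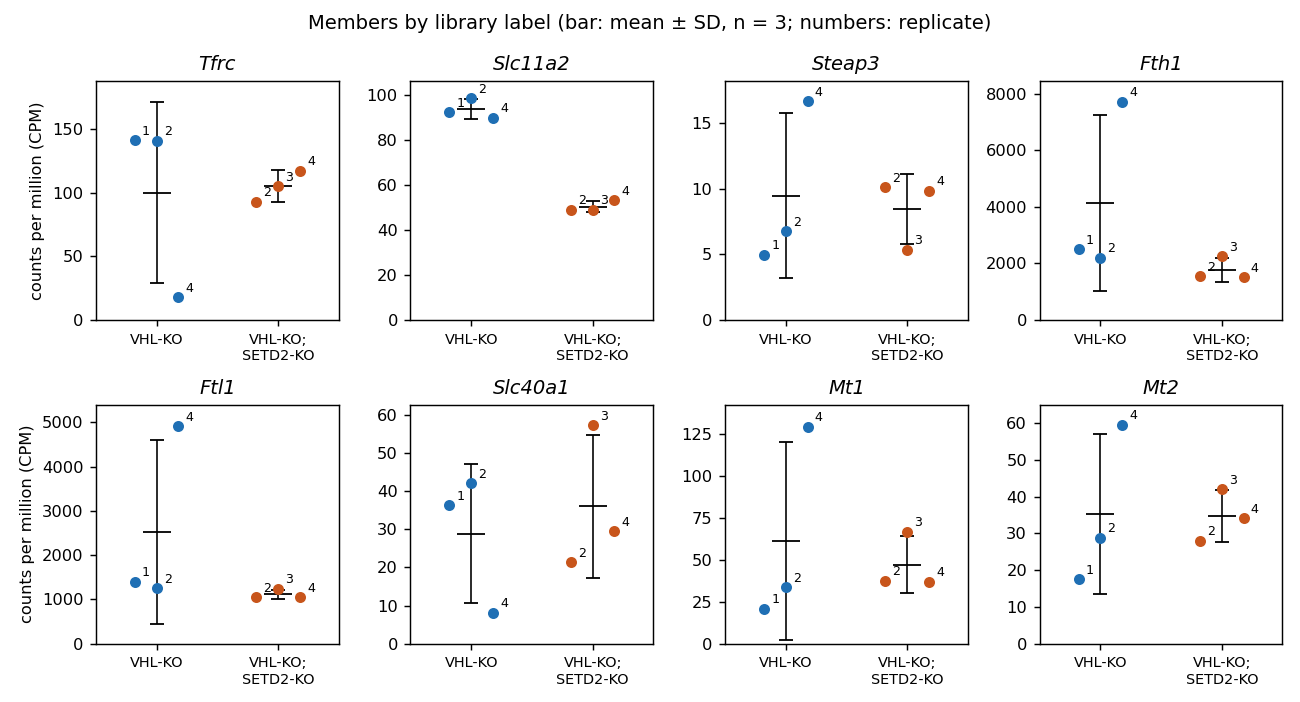
Levels of the 8 members in CPM (vertical axis, from 0) for 3 libraries of each label; points are libraries with their replicate number, the bar is the mean with SD. Slc11a2 sits at 89.8 to 98.4 CPM under one label and 48.9 to 53.1 CPM under the other, while in 7 panels VHL-KO replicate 4 is the lowest or highest point of its label by a wide margin.

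Of the 3 uptake genes, only Slc11a2 had no overlap between the labels, at a lower level under VHL-KO;SETD2-KO. Slc11a2, the divalent metal transporter (DMT1) that moves ferrous iron across the endosomal and apical membrane, lies at chr15:100387898-100425072 on the minus strand. It had 92.3, 98.4 and 89.8 CPM in VHL-KO-labelled replicates 1, 2 and 4, and 48.9, 49.0 and 53.1 CPM in VHL-KO;SETD2-KO-labelled replicates 2, 3 and 4. The levels formed separate, tight groups, 93.5 ± 4.46 against 50.3 ± 2.37 CPM (SD, n = 3 each), and VHL-KO replicate 4 lay with the other libraries of its label. The log2 difference was -0.89 ± 0.35 (SE, 95% interval -1.71 to -0.08), a fold of 0.538, with an unadjusted p of 0.0350 in edgeR's model across all genes and an adjusted p of 0.625. Slc11a2 thus did not pass the adjusted threshold, and it was the 1 member of 8 past the unadjusted thresholds, where the background was 4.68% of genes in this direction. Without VHL-KO replicate 4 the edgeR difference was -0.93 ± 0.12 (SE), with an unadjusted p of 0.000259 and an adjusted p of 0.0775. DESeq2 on the same 5 libraries, a fit added after seeing the data, gave -0.93 ± 0.16 with an adjusted p of 8.77e-07. That passed the threshold, in a fit where 5.62% of genes passed as lower and 3.95% as higher. Other settings ended the unadjusted call, with p of 0.123 with library totals only, 0.0933 with no filter on low counts, and 0.0895 to 0.135 when any library other than VHL-KO replicate 4 was left out. limma-voom with quality weights on all 6 libraries gave an adjusted p of 0.00517 in a fit that called 2978 genes.

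The proximal tubule markers were lower in sum beside Slc11a2 under the same label, though not each of them. Relative to their sum in the same library, a scale chosen after its values were seen, Slc11a2 stood at 6.20, 6.91 and 2.81 CPM per 1000 marker CPM in VHL-KO-labelled replicates 1, 2 and 4, and at 7.68, 5.12 and 6.82 in VHL-KO;SETD2-KO-labelled replicates 2, 3 and 4. On this scale the labels overlapped, with means of 5.31 ± 2.19 and 6.54 ± 1.31 (SD, n = 3), or 6.55 for VHL-KO replicates 1 and 2 alone. The markers disagreed in VHL-KO replicate 4, where Lrp2, Cubn and Slc5a12 stood at 0.279, 0.452 and 0.155 of their mean in replicates 1 and 2. The other markers of the list were higher there, Slc34a1 at 2.92 times, so the sum of that library rests on part of the list. Over the members, 5 of 8 were higher on this scale in every VHL-KO;SETD2-KO-labelled library and 0 lower, but so were 65.7% of all tested genes, with 0.287% lower, so the count says nothing particular of the members. Slc11a2, Fth1 and Ftl1 overlapped. The part of the tubule markers in the Slc11a2 difference was not tested beyond these values.

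**Figure D2:**
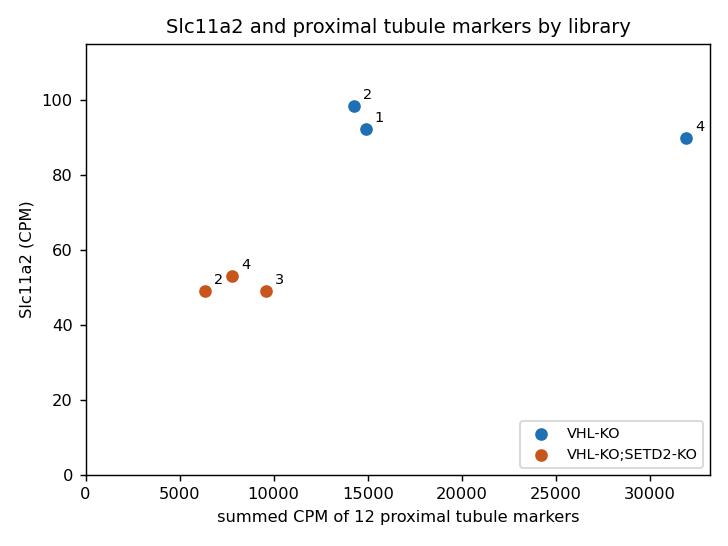
Slc11a2 in CPM (vertical axis) against the summed CPM of 12 proximal tubule markers (horizontal axis), 1 point per library with its replicate number, both axes from 0. The libraries labelled VHL-KO;SETD2-KO sit at lower values on both axes, and VHL-KO replicate 4 has the highest marker sum, 31933 CPM, without a higher Slc11a2 level.

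Tfrc, the transferrin receptor that takes up transferrin-bound iron, lies at chr16:32608920-32632794 on the plus strand. It had 141, 141 and 17.9 CPM in VHL-KO-labelled replicates 1, 2 and 4 and 92.8, 105 and 117 CPM in VHL-KO;SETD2-KO-labelled replicates 2, 3 and 4. A single library set the spread: replicate 4 held 191 Tfrc counts, 0.127 of the mean level of replicates 1 and 2. With all libraries the log2 difference was 0.07 ± 0.69 (SE, adjusted p = 0.977), and without replicate 4 it turned to -0.43 ± 0.15 (unadjusted p = 0.0315, adjusted p = 0.207), under 1.5-fold. Steap3, the endosomal ferrireductase that reduces iron ahead of Slc11a2, was the least abundant member with 73 to 190 counts. It stood at 4.97, 6.75 and 16.6 CPM in VHL-KO-labelled replicates 1, 2 and 4 and at 10.1, 5.35 and 9.85 CPM in VHL-KO;SETD2-KO-labelled replicates 2, 3 and 4, and the labels overlapped. Its log2 difference was -0.16 ± 0.56 (SE, adjusted p = 0.920) with all libraries and 0.53 ± 0.35 (adjusted p = 0.438) without VHL-KO replicate 4.

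Fth1 and Ftl1, the heavy and light ferritin subunits, form the shell that stores iron, and the heavy subunit oxidises the iron that enters it. Fth1 (chr19:9980598-9985098, plus strand) had 2498, 2202 and 7710 CPM in VHL-KO-labelled replicates 1, 2 and 4 and 1543, 2248 and 1515 CPM in VHL-KO;SETD2-KO-labelled replicates 2, 3 and 4. Ftl1 (chr7:45457944-45459884, minus strand) had 1399, 1251 and 4917 CPM against 1052, 1238 and 1047 CPM in the same order. For both subunits VHL-KO replicate 4 was more than 3-fold above its label's other libraries, with ratios of 3.28 for Fth1 and 3.71 for Ftl1. The labels overlapped for Fth1 and did not for Ftl1, where the lowest VHL-KO level, 1251 CPM, and the highest VHL-KO;SETD2-KO level, 1238 CPM, nearly met. Slc11a2 and Ftl1 were the 2 members of 8 without overlap between labels, both lower, where 11.0% of all tested genes were lower and 9.62% higher without overlap. The log2 differences were -1.23 ± 0.61 for Fth1 and -1.18 ± 0.63 for Ftl1 (SE), both with an adjusted p of 0.625, and without VHL-KO replicate 4 they were -0.41 ± 0.27 and -0.26 ± 0.20, with adjusted p of 0.422 and 0.506. The subunits kept a narrow ratio: Fth1 counts were 1.79, 1.76 and 1.57 times those of Ftl1 in VHL-KO-labelled replicates 1, 2 and 4, and 1.47, 1.82 and 1.45 times in the others. Summed, the ferritin transcripts made up 3453 to 12627 CPM under the VHL-KO label and 2562 to 3486 CPM under the VHL-KO;SETD2-KO label. Ftl1 shares long stretches of sequence with 9 other annotated genes, 7 of them in the table, whose summed counts came to 0.720% to 1.04% of its own, so its counts are uncertain at least to that extent.

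Slc40a1, ferroportin, is the one known cellular iron exporter and lies at chr1:45908068-45926523 on the minus strand. Its levels were 36.3, 42.0 and 8.14 CPM in VHL-KO-labelled replicates 1, 2 and 4 and 21.4, 57.2 and 29.5 CPM in VHL-KO;SETD2-KO-labelled replicates 2, 3 and 4. The labels overlapped, and each held a library far from its others, replicate 4 low under VHL-KO and replicate 3 high under VHL-KO;SETD2-KO. The log2 difference was 0.32 ± 0.65 (SE, adjusted p = 0.863) and -0.12 ± 0.41 (adjusted p = 0.892) without VHL-KO replicate 4. VHL-KO;SETD2-KO replicate 3 also had the highest thick limb and distal tubule marker sum of its label, 5053 CPM against 1928 and 2253 CPM in replicates 2 and 4. Its collecting duct and proximal tubule sums were the highest of its label too, and its podocyte, endothelial and macrophage sums the lowest. The part of these cell types in the Slc40a1 level was not tested.

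The metallothioneins Mt1 and Mt2 had no detectable difference between the labels when all libraries were used. Mt1 stood at 21.0, 33.7 and 129 CPM in VHL-KO-labelled replicates 1, 2 and 4 and at 37.5, 66.9 and 36.9 CPM in VHL-KO;SETD2-KO-labelled replicates 2, 3 and 4. Mt2 stood at 17.6, 28.9 and 59.6 CPM against 28.1, 42.0 and 34.1 CPM in the same order. Both were highest in VHL-KO replicate 4 and lowest in VHL-KO replicate 1, and within the other label both were highest in replicate 3. The log2 differences were -0.38 ± 0.69 for Mt1 and -0.03 ± 0.51 for Mt2 (SE, adjusted p = 0.845 and 0.989). Without VHL-KO replicate 4 they were 0.79 ± 0.35 and 0.58 ± 0.27, with unadjusted p of 0.0649 and 0.0785 and adjusted p of 0.271 and 0.293, so the direction depended on that library and passed no threshold in edgeR. In VHL-KO replicates 1 and 2 the Mt1 level was below that of every library labelled VHL-KO;SETD2-KO, and the Mt2 levels overlapped. Mt1 counts were 1.19 and 1.17 times those of Mt2 in VHL-KO replicates 1 and 2 and 2.17 times in replicate 4, and 1.34, 1.59 and 1.08 times in VHL-KO;SETD2-KO replicates 2, 3 and 4. Mt3, a metallothionein best known from brain, was not tested, with 0.053 to 1.78 CPM.

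**Figure D3:**
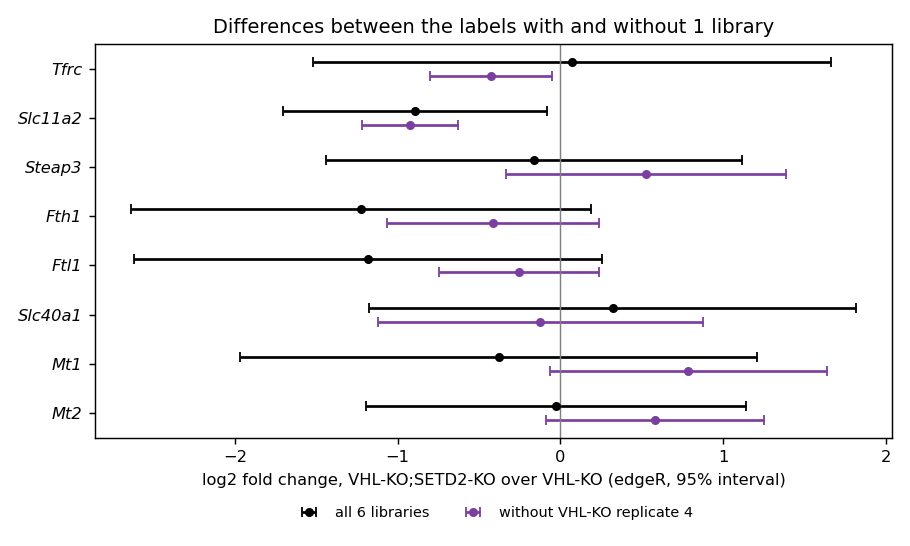
Log2 fold change between the labels, positive where VHL-KO;SETD2-KO was higher (horizontal axis), for the 8 members, edgeR estimate with 95% interval, from all 6 libraries and from 5 without VHL-KO replicate 4. The Slc11a2 estimate is -0.89 and -0.93, while those of Tfrc, Steap3, Slc40a1, Mt1 and Mt2 change sign.

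The members split by transcript length in how VHL-KO replicate 4 departed from replicates 1 and 2. Relative to their mean it held 4.74 times the Mt1 level (549 bases), 2.56 times the Mt2 level (511 bases), 3.28 times the Fth1 level (929 bases) and 3.71 times the Ftl1 level (968 bases). It held 0.208 of the Slc40a1 level (3370 bases) and 0.127 of the Tfrc level (4890 bases). Steap3 (2931 bases) and Slc11a2 (3025 bases) are of similar length and differed, at 2.84 and 0.942 times. Over 13811 tested genes with a length the median log2 ratio was 0.95 for 1295 transcripts under 1 kb and -0.83 for 6350 of 3 kb or more, and Spearman's rho with length was -0.37 across genes, which share 1 library and are not independent. With a transcript length trend removed from each library, an alternative added after seeing the data, Slc11a2 had a log2 difference of -1.02 ± 0.31 (SE, unadjusted p = 0.0121), Mt1 of 0.06 ± 0.52 and Tfrc of -0.06 ± 0.55.

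**Figure D4:**
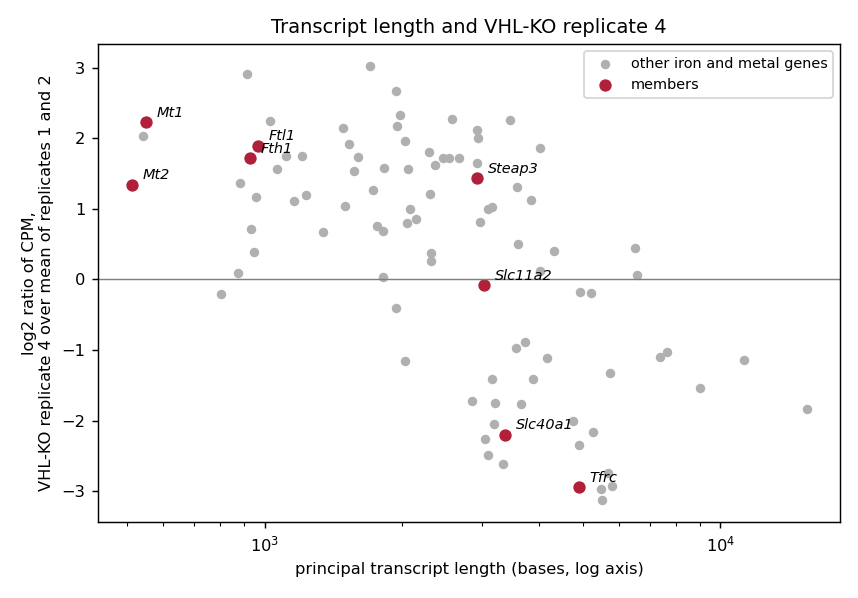
Log2 ratio of CPM in VHL-KO replicate 4 over the mean of VHL-KO replicates 1 and 2 (vertical axis) against principal transcript length in bases (log horizontal axis) for 95 iron and metal genes, with the members named. The members under 1000 bases lie above 0, Slc40a1 and Tfrc lie below it, and Slc11a2 lies near it at -0.09.

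Around the members, 110 genes of iron, heme, zinc and copper handling were listed, of which 95 were tested. None passed the adjusted threshold in edgeR. DESeq2 on all 6 libraries called 0 too, but gave an adjusted p for only 14 of the 95 and for 2 of the 8 members. Of all 14611 tested genes 1292 had an adjusted p in that fit. At the unadjusted thresholds 11 were lower and 2 higher, against 4.68% and 2.65% of all genes. Their median log2 difference was -0.46 beside 0.01 for all tested genes, and without VHL-KO replicate 4 it was -0.15 beside 0.03, with 12 lower and 5 higher of 96 tested, where 7.14% and 8.29% of all genes were lower and higher.

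Of 17 tested genes of iron uptake and reduction, 2 were past the unadjusted thresholds, Slc11a2 and Amn, the latter a partner of the cubilin receptor for filtered proteins, and without VHL-KO replicate 4 it was 4 of 18. The list shares the receptors Lrp2 and Cubn with the proximal tubule markers. Amn had 66.9, 61.9 and 528 CPM in VHL-KO-labelled replicates 1, 2 and 4 and 33.6, 67.0 and 42.2 CPM in VHL-KO;SETD2-KO-labelled replicates 2, 3 and 4, and its log2 difference of -2.20 became -0.44 (unadjusted p = 0.184) without VHL-KO replicate 4. Trf, transferrin, was at 9.76 to 67.2 CPM against 14.1 to 61.3 CPM, and Steap2, another ferrireductase, at 28.0 to 102 CPM against 63.1 to 127 CPM. Tfr2, the liver-type transferrin receptor, did not exceed 2.90 CPM. Of 5 tested storage and chaperone genes 0 passed: Ncoa4, the receptor for ferritin breakdown, had a log2 difference of 0.41 ± 0.65 and Pcbp1, which delivers iron to ferritin, of -0.64 ± 0.53 (SE).

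All 3 tested genes of iron export and oxidation, Slc40a1, Cp and Heph, had positive values, as had 7374 of all 14611 tested genes. Their median log2 difference was 1.12. Without VHL-KO replicate 4 the median was 0.73 and Slc40a1 was at -0.12. Cp and Heph were higher without overlap between labels, as were 9.62% of all tested genes. Cp, ceruloplasmin, the ferroxidase that works with ferroportin, had 17.5, 20.1 and 20.5 CPM in VHL-KO-labelled replicates 1, 2 and 4 and 46.7, 50.5 and 28.9 CPM in VHL-KO;SETD2-KO-labelled replicates 2, 3 and 4. Its log2 difference was 1.12 ± 0.39 (SE, unadjusted p = 0.0201, adjusted p = 0.625) and 1.16 ± 0.27 (adjusted p = 0.112) without VHL-KO replicate 4. DESeq2 without that library, the fit added after seeing the data, called it, with an adjusted p of 0.00659. Heph, a membrane-bound ferroxidase, was at 6.85, 8.97 and 1.59 CPM against 13.7, 16.2 and 9.41 CPM, a log2 difference of 1.17 ± 0.62 (unadjusted p = 0.0955). Hamp, the hormone that removes ferroportin, had no count in 4 libraries and at most 0.063 CPM.

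Aco1, which doubles as iron regulatory protein 1 when it lacks its iron-sulfur cluster, was the 1 of 10 tested iron-sensing genes past the unadjusted thresholds. It stood at 339, 323 and 723 CPM in VHL-KO-labelled replicates 1, 2 and 4 and at 174, 229 and 206 CPM in VHL-KO;SETD2-KO-labelled replicates 2, 3 and 4, without overlap. The log2 difference was -1.18 ± 0.48 (SE, unadjusted p = 0.0372). Without VHL-KO replicate 4 it was -0.71 ± 0.18 (unadjusted p = 0.00692, adjusted p = 0.126). The added DESeq2 fit without that library gave Aco1 an adjusted p of 0.00615. Per 1000 CPM of proximal tubule markers it lay at 22.6 to 22.8 under the VHL-KO label and 23.9 to 27.4 under the other, a scale on which 65.7% of all genes were higher without overlap. Ireb2, iron regulatory protein 2, had a log2 difference of -0.06 ± 0.69 and Fbxl5, the ligase subunit that removes it, of 0.29 ± 0.51.

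Among 25 tested zinc and copper transport genes, 4 were lower and 1 higher at the unadjusted thresholds. Slc30a2, a zinc exporter into vesicles, had 87.0, 79.4 and 170 CPM in VHL-KO-labelled replicates 1, 2 and 4 and 31.9, 30.4 and 41.2 CPM in VHL-KO;SETD2-KO-labelled replicates 2, 3 and 4. Its log2 difference was -1.70 ± 0.45 (SE, unadjusted p = 0.00532) and -1.27 ± 0.17 (adjusted p = 0.0775) without VHL-KO replicate 4. The added DESeq2 fit without that library gave Slc30a2 an adjusted p of 2.14e-06. Per 1000 CPM of proximal tubule markers Slc30a2 lay at 5.31 to 5.84 under the VHL-KO label and at 3.17 to 5.30 under the other. It was lower without overlap by a small margin, as were 0.287% of all tested genes. The value of 5.31 is that of VHL-KO replicate 4, whose marker sum rests on part of the list. The zinc transporter Slc39a11 (-1.55), the copper pump Atp7b (-1.47) and the copper chaperone Ccs (-1.22) were the others lower, with -0.72, -1.30 and -0.50 without that library. Slc31a2, a low-affinity copper transporter, was higher, at 17.1, 20.0 and 18.9 CPM against 38.8, 28.6 and 34.2 CPM, a log2 difference of 0.86 ± 0.35 that was 0.87 ± 0.18 without VHL-KO replicate 4. DESeq2 without that library called Slc31a2 (adjusted p = 0.00713) and Slc39a11 (adjusted p = 0.00846), but not Atp7b or Ccs. The zinc exporter Slc30a1, a metal-responsive gene like the metallothioneins, had a log2 difference of 0.04 ± 0.58.

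Heme and mitochondrial iron genes were mostly negative in value. Of 16 tested heme genes 15 were below 0, where 7237 of all 14611 tested genes were. Their median log2 difference was -0.84, or -0.26 without VHL-KO replicate 4. As lower, 3 passed the unadjusted thresholds (1 without that library), among them Blvrb (-1.65), which reduces biliverdin, and the heme and folate transporter Slc46a1 (-1.77). Without VHL-KO replicate 4 the values of Blvrb and Slc46a1 were -0.45 and -0.53. Hmox1, heme oxygenase, had 38.6, 50.7 and 131 CPM in VHL-KO-labelled replicates 1, 2 and 4 and 35.1, 73.5 and 33.6 CPM in VHL-KO;SETD2-KO-labelled replicates 2, 3 and 4, and Alas1, the rate-limiting enzyme of heme synthesis, a log2 difference of -1.15 ± 0.50 (SE, unadjusted p = 0.0501). Of 19 tested genes of mitochondrial iron and iron-sulfur clusters 16 were below 0 and 1 passed the unadjusted thresholds, the transporter Abcb8 (-1.50, and -0.49 without VHL-KO replicate 4). Their median was -0.75, and without that library it was -0.33, with 3 past the unadjusted thresholds as lower. The mitochondrial iron importer Slc25a37 had a log2 difference of 0.21 ± 0.44.

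**Figure D5:**
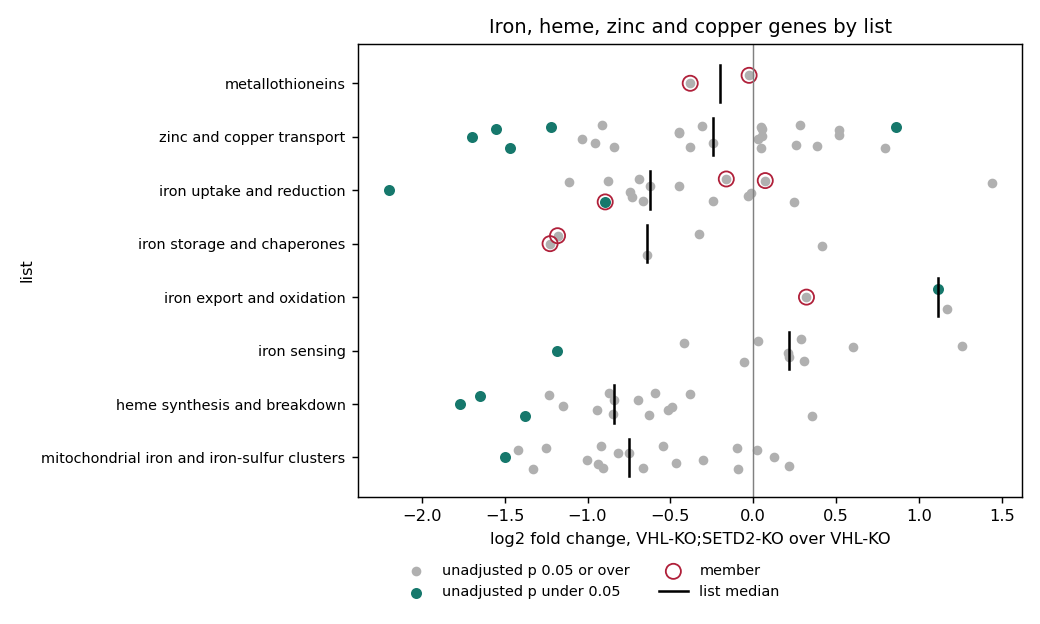
Log2 fold change between the labels, positive where VHL-KO;SETD2-KO was higher (horizontal axis), for 95 tested iron and metal genes in 8 lists (rows; a gene in several lists appears in each); green points have an unadjusted p under 0.05, red rings are members, bars are list medians. The medians run from -0.84 for heme genes to 1.12 for iron export and oxidation.

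For 7 of the members the list gene with the most similar profile was found by Pearson's r of log2 CPM over the 6 libraries, among 94 genes, as a description. Slc11a2 was most like Fdx1, a mitochondrial ferredoxin, with r of 0.96, and 0.96 over the 5 libraries without VHL-KO replicate 4. Fdx1 was at 47.1, 47.4 and 50.3 CPM in VHL-KO-labelled replicates 1, 2 and 4 and at 25.0, 30.7 and 30.5 CPM in VHL-KO;SETD2-KO-labelled replicates 2, 3 and 4. Mt2 was most like Mt1 (0.97, then 0.95), Mt1 like the zinc transporter Slc39a13 (0.98, then 0.97) and Slc40a1 like Steap2 (0.99, then 0.94). Fth1 was most like the glutaredoxin Glrx5 (1.00, then 0.97), Ftl1 like the lysosomal channel Mcoln1 (1.00, then 0.90) and Steap3 like Hfe (0.84, then 0.60). The libraries share label, depth and the departure of VHL-KO replicate 4, which the second value leaves out.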

How the data were processed

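RNA of 6 libraries, 3 per label, was sequenced by the authors as directional paired-end reads of 150 bases. The authors deposited raw counts per gene symbol. The submitters' processing notes name HISAT2 2.0.4 and GRCm38; the counting program, annotation and use of strand are not given in the sources used here. The labels pair each count column with a sample, and 0 per-sample columns were left unused. The study gives 3 mice per group, which the labels tell apart only by replicate number; sex was not given.

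Counts were filtered by filterByExpr, scaled by TMM and tested with edgeR 4.0.16 (R 4.3.3) by its quasi-likelihood test, without covariates, with Benjamini-Hochberg adjustment over 14611 genes. Standard errors were derived from the F statistic. DESeq2 1.42.0 (the study's tool), limma 3.58.1, other scalings and filters, and leaving out each library were alternatives. Removing the transcript length trend (the transcript length offset) and DESeq2 without VHL-KO replicate 4 were added after seeing the data. The table names mitochondrially encoded genes without a prefix (ND1, COX1, CYTB and the like), so those symbols were used. Scripts were tested on simulated data. Similar genes were found with BLAST 2.17.0 (at least 90% identity over 200 bases). Lengths came from the principal GENCODE M21 transcript, found for 94.5% of tested genes.

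The members, gene lists and markers were chosen with earlier results of these data known. Named genes were all 8 members, list genes past an adjusted p of 0.05 or else an unadjusted p of 0.05 with a 1.5-fold change, set neighbours of the members, each member's most similar list gene, and the targeted genes. A few results that this rule names are not reported here. Counting intervals and floors cover counting error only.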

Additional observations from a re-analysis of the deposited data

How the results depend on the processing

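No member passed an adjusted p of 0.05 in edgeR under any scaling, filter or library left out, and leaving out VHL-KO replicate 4 turned the sign of more members than leaving out any other library. The adjusted count was 2 with limma-voom quality weights (Slc11a2 and Fth1), where 2978 of all 14611 tested genes passed. It was 1 with DESeq2 without VHL-KO replicate 4 (Slc11a2), where 5.62% of all genes passed as lower and 3.95% as higher. DESeq2 with all libraries gave no adjusted p for 6 members, Slc11a2 among them, and gave one for 1292 of all 14611 tested genes. The count of members past the unadjusted thresholds, 1 in the report, was 0 with library totals only, with no filter and with the replicate block, 3 with DESeq2, 3 with limma-voom quality weights, 2 with DESeq2 without VHL-KO replicate 4, and 0 to 1 over the libraries left out. It was 0 without VHL-KO replicate 1, VHL-KO replicate 2 or any 1 of the VHL-KO;SETD2-KO libraries. Of all 14611 tested genes, 387 were higher and 684 lower in the report. These counts were 418 and 1133 with DESeq2, 2124 and 1527 with limma-voom quality weights, 812 and 309 with library totals only, and 93 and 54 with the replicate block. They were 1425 and 1093 of 15000 with DESeq2 without VHL-KO replicate 4, and 327 and 833 of 13904 with the transcript length offset.

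For the 95 iron and metal genes the adjusted count, 0 in the report, was 30 with limma-voom quality weights and 14 with DESeq2 without VHL-KO replicate 4. Over all tested genes 2978 and 1324 passed in these fits, and the unadjusted counts of all genes are those given above. Genes higher at the unadjusted thresholds, 2 in the report, numbered 7 with limma-voom quality weights, 1 with the replicate block, 1 with the transcript length offset, 7 with DESeq2 without VHL-KO replicate 4, and 0 to 5 over the libraries left out. Genes lower, 11 in the report, numbered 3 with library totals only, 18 with DESeq2, 21 with limma-voom quality weights, 0 with the replicate block, and 1 to 15 over the libraries left out. The median of all genes moved to 0.29 with library totals only.

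Slc11a2, Fth1 and Ftl1 were negative under each alternative, Slc11a2 from -1.02 to -0.62. Reversed signs were: Mt1 at 0.54 with limma-voom quality weights, 0.055 with the transcript length offset and 0.78 with DESeq2 without VHL-KO replicate 4, and from -0.77 to 0.79 over the libraries left out; Mt2 at 0.30 with library totals only, 0.044 without mitochondrially encoded genes, 0.52 with limma-voom quality weights, 0.058 with no filter, 0.31 with the transcript length offset and 0.58 with DESeq2 without VHL-KO replicate 4, and from -0.33 to 0.58; Tfrc at -0.38 with limma-voom quality weights, -0.064 with the transcript length offset and -0.43 with DESeq2 without VHL-KO replicate 4, and from -0.43 to 0.41. Slc40a1 stood at -0.49 with limma-voom quality weights and -0.13 with DESeq2 without VHL-KO replicate 4, and from -0.18 to 0.69, where VHL-KO;SETD2-KO replicate 3 also turned it. Steap3 stood at 0.15 with library totals only, 0.73 with limma-voom quality weights and 0.52 with DESeq2 without VHL-KO replicate 4, and from -0.45 to 0.53. The summed Mt1 and Mt2 level gave a log2 ratio of 0.11 with library totals only, and -0.62 to 0.70 over the libraries left out. The cause of each was not tested.

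Replicate numbers 2 and 4 occur under both labels, and nothing in the labels says that they mark a pair. Deviations of same-numbered libraries correlated at 0.16 and -0.32, which with 2 pairs, 1 of them holding VHL-KO replicate 4, does not settle whether they pair, and the block was not used in the main test. With the replicate block the Slc11a2 difference was -0.88 (adjusted p = 0.951). Depth limits genes of few counts, such as Steap3 with 73 to 190.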
